A study of Mus musculus with 6 samples.

Results

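The microtubule genes were examined in lenses of newborn mice (postnatal day 0, P0) in which Celf1, the gene of an RNA-binding protein, had been conditionally deleted in the lens. A gene counted as a member when its symbol named an alpha, beta or gamma tubulin, a kinesin heavy or light chain, a cytoplasmic dynein or dynactin subunit, a stathmin, or one of the structural microtubule-associated proteins Mapt, Map1a, Map1b, Map1s, Map2 and Map4. This gave 89 of the 13931 genes in the table, of which 75 had a mean expression above 1 log2 CPM (CPM, normalised read counts scaled to library size) over the 6 libraries. Tuba1a and Tubb3 were not analysed here.

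RNA-sequencing of whole lenses gave 3 Control and 3 Celf1cKO libraries, each from a pool of 2 lenses. Per library, between 40694454 and 44387151 reads were assigned to the genes of the table, as worked back from the deposited values. The Celf1cKO mice carry 1 germline knockout allele of Celf1 (lacZKI), 1 floxed allele in which loxP sites flank exon 5, and the Pax6GFPCre transgene, which expresses Cre in the lens lineage from the placode stage. By the labels the Control mice were Celf1lacZKI/+ and would share the germline allele, whereas the methods name Celf1flox mice without Cre as the usual control, and which of them gave these lenses was not settled. Both groups were of mixed C57BL/6 and FVB background. Nothing states that the replicates of a group came from separate litters, so that p-values measure the spread between these libraries alone.

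Microtubules are hollow polymers of alpha and beta tubulin, nucleated by gamma tubulin. Kinesins move along them mostly toward the plus end and cytoplasmic dynein 1, with its cofactor dynactin, moves toward the minus end. One class of kinesins builds and divides the mitotic spindle and is made in dividing cells, while another class carries vesicles and organelles in cells that have left the cycle. In the lens, division takes place in the anterior epithelium, and fiber cells leave the cycle, elongate along microtubule bundles and later lose their organelles.

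Celf1 itself, on chromosome 2, stood at 9.95, 9.94 and 9.34 log2 CPM in the Control libraries and at 8.93, 7.66 and 7.83 in the Celf1cKO libraries. It was reduced in Celf1cKO, with a log2 fold-change of -1.60 (SE 0.33, limma adjusted p = 0.0269), and the groups did not overlap. It missed the test in 5 of the 6 comparisons that left out 1 library. Each Celf1cKO library still held between 9850 and 20954 Celf1 reads. Of 8 fiber cell markers 7 were in the table, and they summed to between 259859 and 295123 CPM in Control and between 212660 and 222607 CPM in Celf1cKO. They include the crystallin gene Cryaa and the membrane protein gene Mip, 5 of the 7 had a negative log2 fold-change, and 1 was reduced (Bfsp1, -1.47, SE 0.23, limma adjusted p = 0.0139). On this normalised scale the sum over all genes was also lower in Celf1cKO. It lay between 1037430 and 1127479 CPM in Control and between 896469 and 947724 CPM in Celf1cKO. For other tissues, no cornea or skin keratinocyte marker was in the table, and 5 listed markers of the pigment and ciliary epithelium summed to between 3.58 and 22.0 CPM in Control and between 6.78 and 26.9 CPM in Celf1cKO. A set of 6 neural retina markers summed to 5.80, 8.23 and 13.3 CPM in Control and to 4.91, 2.98 and 4.16 CPM in Celf1cKO. Of the 6, 4 had a negative and 2 a positive log2 fold-change. The lowest was that of Elavl4, which was reduced (-1.86, limma adjusted p = 0.0269). The highest was 2.13, and 0 of the 6 were called higher. The part of these cell types in the differences described here was not tested.

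Of the 89 members, 8 were elevated and 1 was reduced in Celf1cKO lenses at an adjusted p under 0.05 (limma, Benjamini-Hochberg over all 13931 genes), a log2 fold-change beyond 0.58 and a mean above 1 log2 CPM. Over all genes 7.25% passed, 4.69% in the higher and 2.56% in the lower direction, so that the 10.1% of members that passed lay near the share of all genes. A call needs a mean above 1 log2 CPM, and of the 10529 genes with such a mean 9.59% passed. All 3 Celf1cKO libraries lay above all 3 Control libraries for 30 members and below them for 12, beside 19.5% and 17.0% of all genes. The median log2 fold-change was 0.11 over the members and -0.04 over all genes. Without Control replicate 2, and likewise without Celf1cKO replicate 3, 1 gene of the whole table and 0 members passed in limma, with 31 and 30 members at an unadjusted p under 0.05 against 40 in the full comparison. Without Celf1cKO replicate 1, 20 members passed. Scaling by total reads, which shifts the median of all genes by 0.23 on the log2 scale, called 23 members higher and 1 lower, beside 1650 and 196 of all genes.

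**Figure D1:**
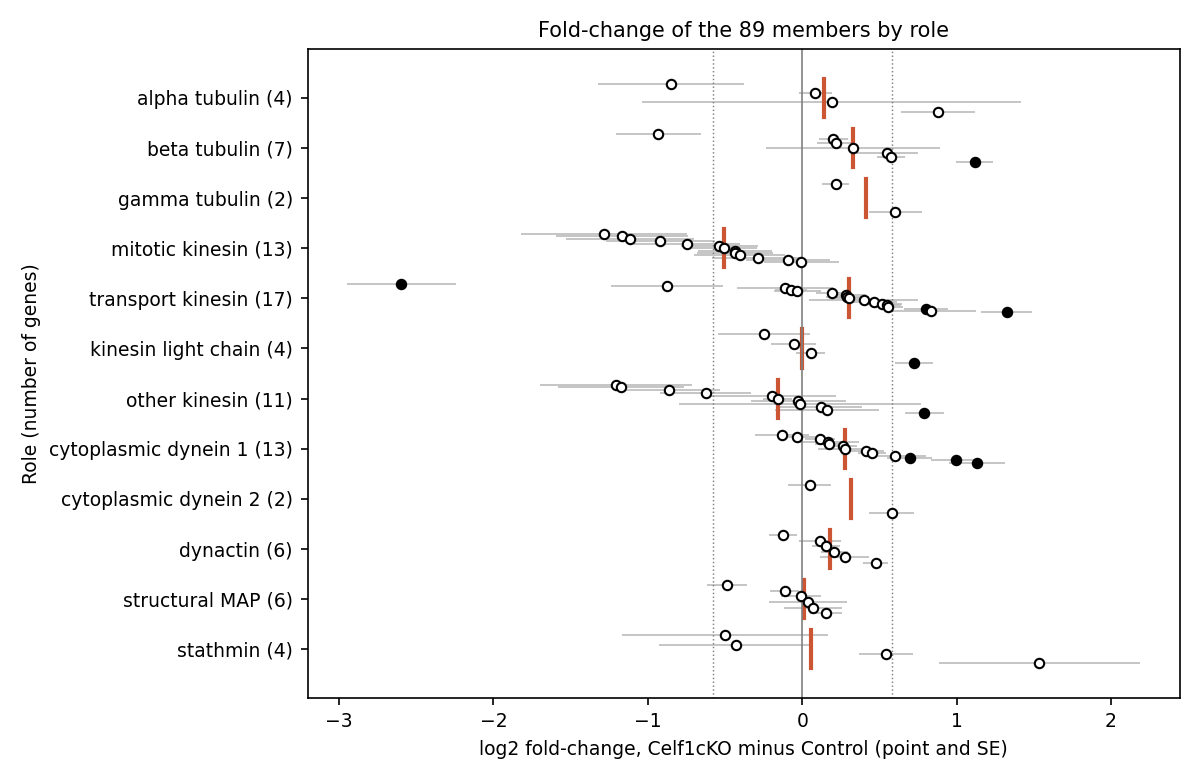
Log2 fold-change (Celf1cKO minus Control, horizontal axis) of the 89 members by role, as points with the standard error; filled points passed the test, red bars are the median of each role, and dotted lines mark 0.58 in either direction. All 13 mitotic kinesins lie below 0, while the called transport motors and dynein subunits lie above it apart from Kifc3 at -2.60.

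A further 7 members had an adjusted p under 0.05 and a smaller rise, which gave 15 members higher and 1 lower at any size of change, beside 7.85% and 4.03% of all genes. These 7 were Kif1a, Kif1c, Kif13a, Dync1i2, Dync2li1, Dctn4 and Tubb2b, and they are listed because the count turns on them. Kif1a, the kinesin that carries synaptic vesicle precursors in axons, was the transport kinesin with the highest level per kilobase of exon, at 72.4 ± 6.11 CPM per kb in Control and 104 ± 15.1 in Celf1cKO (SD, n = 3). Its values were 9.26, 9.50 and 9.42 log2 CPM in Control and 9.66, 10.03 and 10.05 in Celf1cKO. The groups did not overlap, and the log2 fold-change of 0.52 (SE 0.13, limma adjusted p = 0.0452) lay just under the size threshold.

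Among the transport motors, Kif3c, Kif5c and Klc1 were elevated in Celf1cKO lenses and Kifc3 was reduced. The 3 elevated and 1 reduced genes were 19.0% of the 21, beside 4.69% and 2.56% of all genes in these directions. The mean above 1 log2 CPM that a call needs was reached by 19 of the 21, and 9.59% of all genes above that mean passed. Of 17 transport kinesins and 4 kinesin light chains, 14 had a positive log2 fold-change and the median was 0.29. Over all genes, 6467 of 13931 had a positive log2 fold-change. Of the 21, 11 lay higher in every Celf1cKO library than in any Control library, beside 19.5% of all genes. Their summed expression was 1859, 2099 and 1923 CPM in Control and 2357, 2928 and 2875 CPM in Celf1cKO. The 4 calls became 0 without Control replicate 2 or Celf1cKO replicate 3, 2 without Celf1cKO replicate 2 and 8 without Celf1cKO replicate 1. In whole-lens RNA, a change in the number of cells of a type and a change in the RNA of each cell cannot be told apart.

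Kif3c encodes a kinesin-2 motor subunit that pairs with Kif3a. It was expressed at 4.38, 4.45 and 4.60 log2 CPM in Control and at 5.46, 6.10 and 5.85 in Celf1cKO. This was a 2.51-fold rise (log2 fold-change 1.33, SE 0.17, limma adjusted p = 0.00951), and the lowest Celf1cKO library stood well above the highest Control library. Its partner Kif3a moved less and stood higher by 0.47 on the log2 scale (adjusted p = 0.0793 by limma). The related Kif3b stood higher by 0.20 (adjusted p = 0.25 by limma), and neither passed.

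Kif5c, a kinesin heavy chain best known from neurons, stood at 6.84, 6.84 and 6.46 log2 CPM in Control and at 7.31, 7.54 and 7.69 in Celf1cKO (log2 fold-change 0.80, SE 0.14, limma adjusted p = 0.0178). The more abundant Kif5b, found in most cell types, was at 21.3 ± 1.5 CPM per kb in Control and 26.1 ± 0.81 in Celf1cKO and did not pass (log2 fold-change 0.30, limma adjusted p = 0.0583). Kif5a, the other neuronal heavy chain, was low in all libraries and did not pass either (0.83, SE 0.29, limma adjusted p = 0.109).

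Klc1 encodes a light chain that links the Kif5 motors to their cargo. Its values were 7.63, 8.0 and 7.88 log2 CPM in Control and 8.39, 8.64 and 8.67 in Celf1cKO. The groups were separate, with a log2 fold-change of 0.73 (SE 0.12, limma adjusted p = 0.0162). The log2 fold-changes of Klc2, Klc3 and Klc4 lay between -0.25 and 0.06, and none of them passed.

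Kifc3, a kinesin that moves toward the minus end, was the single reduced member and changed most. It was expressed at 5.16, 5.54 and 6.00 log2 CPM in Control and at 3.72, 2.40 and 2.78 in Celf1cKO. This corresponds to a 6.05-fold fall (log2 fold-change -2.60, SE 0.35, limma adjusted p = 0.0106). In levels per length, Kifc3 went from 9.19 ± 2.72 to 1.59 ± 0.79 CPM per kb (SD, n = 3). Among the remaining kinesins, Kif26b, an unconventional kinesin, was elevated and stood at 6.35, 6.43 and 6.57 log2 CPM in Control and at 6.98, 7.40 and 7.35 in Celf1cKO (log2 fold-change 0.79, SE 0.13, limma adjusted p = 0.0147). Kif2a, a microtubule depolymerase, did not pass (-0.16, SE 0.10, limma adjusted p = 0.30), nor did Kif6 (-1.17, SE 0.41, limma adjusted p = 0.104), which was lowest in Celf1cKO library 2 at 0.45 log2 CPM.

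**Figure D2:**
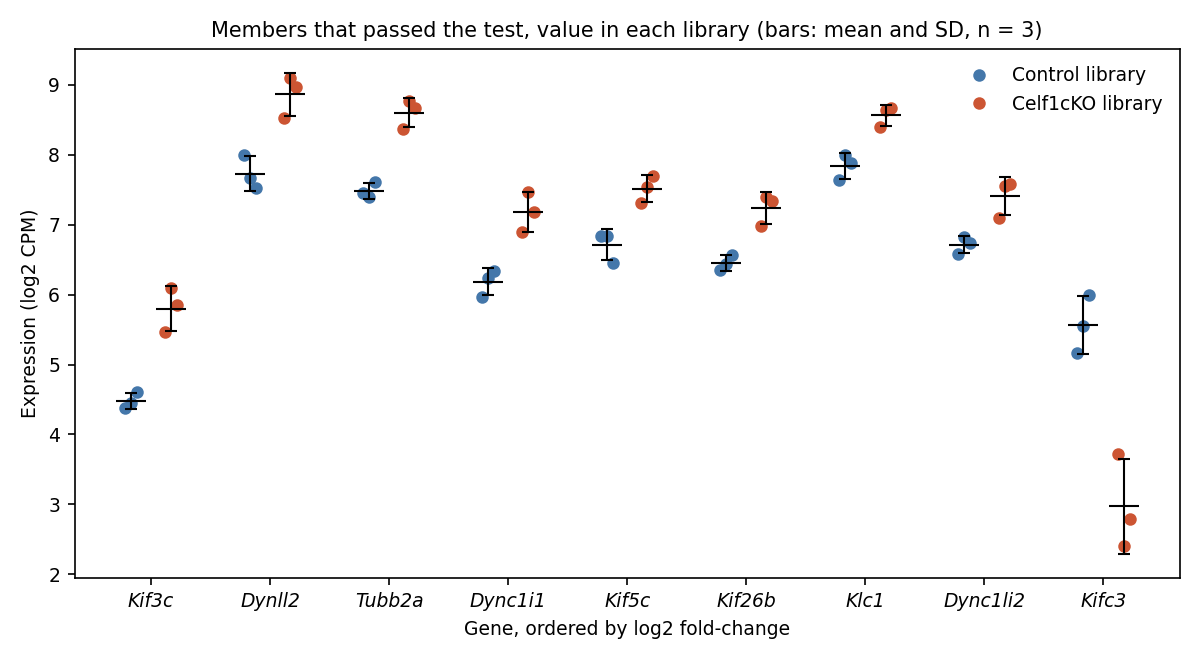
Expression (log2 CPM, vertical axis) of the 9 members that passed the test, in each Control (blue) and Celf1cKO (red) library, with the mean and SD of the 3 libraries as black bars. In none of the 9 genes do the groups overlap, and Kifc3 has the widest spread in Celf1cKO, from 2.40 to 3.72.

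In cytoplasmic dynein 1, the subunit genes Dynll2, Dync1i1 and Dync1li2 were elevated. Of 19 dynein 1 and dynactin genes, these 3 (15.8%) passed in the higher and 0 in the lower direction, beside 4.69% and 2.56% of all genes, and the median log2 fold-change was 0.26. All 19 had the mean above 1 log2 CPM that a call needs, and 9.59% of all genes above that mean passed in either direction. The 3 came from different parts of the motor: an intermediate chain, a light intermediate chain and a light chain. Summed expression was 1500, 1544 and 1496 CPM in Control and 1853, 2337 and 2204 CPM in Celf1cKO. The 3 calls became 0 without Control replicate 2 or Celf1cKO replicate 3 and 1 without Control replicate 3.

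Dynll2, a light chain that also serves as a dimerization hub for many other proteins, had the highest level per length of the dynein genes, at 78.4 ± 13.7 CPM per kb in Control and 173 ± 34.4 in Celf1cKO (SD, n = 3). Its log2 CPM was 8.0, 7.67 and 7.52 in Control and 8.52, 9.10 and 8.97 in Celf1cKO. It was elevated 2.19-fold (log2 fold-change 1.13, SE 0.18, limma adjusted p = 0.0141). Its close relative Dynll1 was at -0.03 (SE 0.13, limma adjusted p = 0.895), with overlapping groups.

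Dync1i1, the intermediate chain known mainly from neurons, rose from 5.97, 6.24 and 6.34 log2 CPM in Control to 6.89, 7.46 and 7.19 in Celf1cKO (log2 fold-change 0.996, SE 0.16, limma adjusted p = 0.0147). Dync1i2, the widely expressed intermediate chain, changed by 0.45 (SE 0.09, limma adjusted p = 0.0235), under the size threshold. For the light intermediate chain Dync1li2 the values were 6.58, 6.82 and 6.74 log2 CPM in Control and 7.09, 7.55 and 7.59 in Celf1cKO. It was elevated by 0.70 on the log2 scale (SE 0.15, limma adjusted p = 0.0268), whereas Dync1li1 did not pass (0.18, limma adjusted p = 0.241). Celf1cKO library 1 was the lowest of the 3 Celf1cKO libraries for each of the 3 elevated subunits.

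Dync1h1, the motor-bearing heavy chain, stood at 8.29, 8.37 and 8.38 log2 CPM in Control and at 8.52, 8.92 and 8.83 in Celf1cKO. The groups did not overlap, but the difference of 0.41 (SE 0.12) missed the test (limma, adjusted p = 0.0602). Dctn2, which encodes dynamitin and has the highest level per length of the dynactin genes, differed by 0.21 (SE 0.09, limma adjusted p = 0.164). Dync2h1, the heavy chain of the separate dynein that works inside cilia, differed by 0.05 (SE 0.14, limma adjusted p = 0.848), and its sign turned without Control replicate 1 or Celf1cKO replicate 2.

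The mitotic kinesins had negative differences that did not pass the test. Of the 13, 0 were called by limma or by limma voom, with a lowest adjusted p of 0.117 by limma. At an unadjusted p under 0.05 there were 5 (6 with voom), and all 13 had a negative log2 fold-change, from -1.28 to -0.01 with a median of -0.50. With scaling by total reads, 11 of the 13 were negative and 0 had an unadjusted p under 0.05. The median was -0.28 with that scaling and -0.31 without Celf1cKO replicate 2, where 11 of the 13 were negative. In 4 of the 13 the groups did not overlap, beside 17.0% of all genes. Celf1cKO library 2 was the lowest of the 6 libraries for 13 of 13 genes, and Control library 3 was the highest for 12. Celf1cKO library 1 lay below all Control libraries for 5 genes, library 2 for 13 and library 3 for 9.

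Kif11 encodes the motor that pushes spindle poles apart and had the highest level per length of these genes, at 2.04 ± 0.34 CPM per kb in Control and 1.31 ± 0.61 in Celf1cKO (SD, n = 3). Its log2 CPM was 3.94, 3.67 and 4.15 in Control and 3.85, 2.41 and 3.27 in Celf1cKO. The groups overlapped through Celf1cKO library 1, and the log2 fold-change was -0.75 (SE 0.34, limma adjusted p = 0.192). Without Celf1cKO replicate 2 it was -0.36, and without Celf1cKO replicate 1 it was -1.08 and passed.

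The largest difference among the 13 was that of Kif23, a component of the cytokinetic midzone, at 3.10, 2.71 and 3.46 log2 CPM in Control and 2.77, 0.51 and 2.15 in Celf1cKO. It did not pass (log2 fold-change -1.28, SE 0.54, limma adjusted p = 0.161), and was -0.63 without Celf1cKO replicate 2. Kif15, a spindle motor, stood at 2.68, 2.67 and 3.38 log2 CPM in Control and at 2.54, 0.85 and 1.83 in Celf1cKO (-1.17, SE 0.43, limma adjusted p = 0.117). Kif14, needed to complete cytokinesis, differed by -1.12 (SE 0.41, limma adjusted p = 0.121). Kif15 and Kif14 were lower in every Celf1cKO library than in any Control library. Kif11, Kif15 and Kif23 were called lower when Celf1cKO replicate 1 was left out, and none was in the other leave-one-out comparisons.

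Summed over the 13 genes, expression was 73.3, 69.3 and 98.2 CPM in Control and 70.6, 34.8 and 54.5 CPM in Celf1cKO, so that Celf1cKO library 1 lay within the Control range. Within each replicate number the Celf1cKO library was the lower one, with differences of -2.73, -34.5 and -43.7 CPM (exact paired permutation p = 0.25, the smallest that 3 pairs allow). The wider list of 27 proliferation genes showed the same library order at the low end: its sums were 456, 432 and 597 CPM in Control and 446, 330 and 407 CPM in Celf1cKO, and library 2 was the lowest for 20 of 27. None of the 27 passed in limma or voom, with 9 and 11 at an unadjusted p under 0.05, and Top2a passed with the replicate block. Of the 8 lens epithelium markers 2 were reduced, 6 had a negative and 2 a positive log2 fold-change, and in 4 the Celf1cKO libraries lay below all Control libraries. The log2 fold-changes of the 8 ran from -2.01 to 0.54. Together the 8 summed to between 12820 and 15803 CPM in Control and between 7526 and 9910 in Celf1cKO. The list includes the crystallin gene Cryab, which by its mean level in the study makes up most of that sum. The epithelial transcription factor Foxe3, named after its values were seen, was at 3.42, 1.63 and 3.76 log2 CPM in Celf1cKO against 4.86 to 5.12 in Control. Mesenchyme markers summed to between 77.6 and 109 CPM in Control and to 60.9, 17.7 and 29.4 CPM in Celf1cKO, and blood and vessel markers to between 49.0 and 68.6 CPM in Control and to 66.7, 8.19 and 28.1 CPM in Celf1cKO. The part of these cell types in the kinesin differences was not tested.

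**Figure D3:**
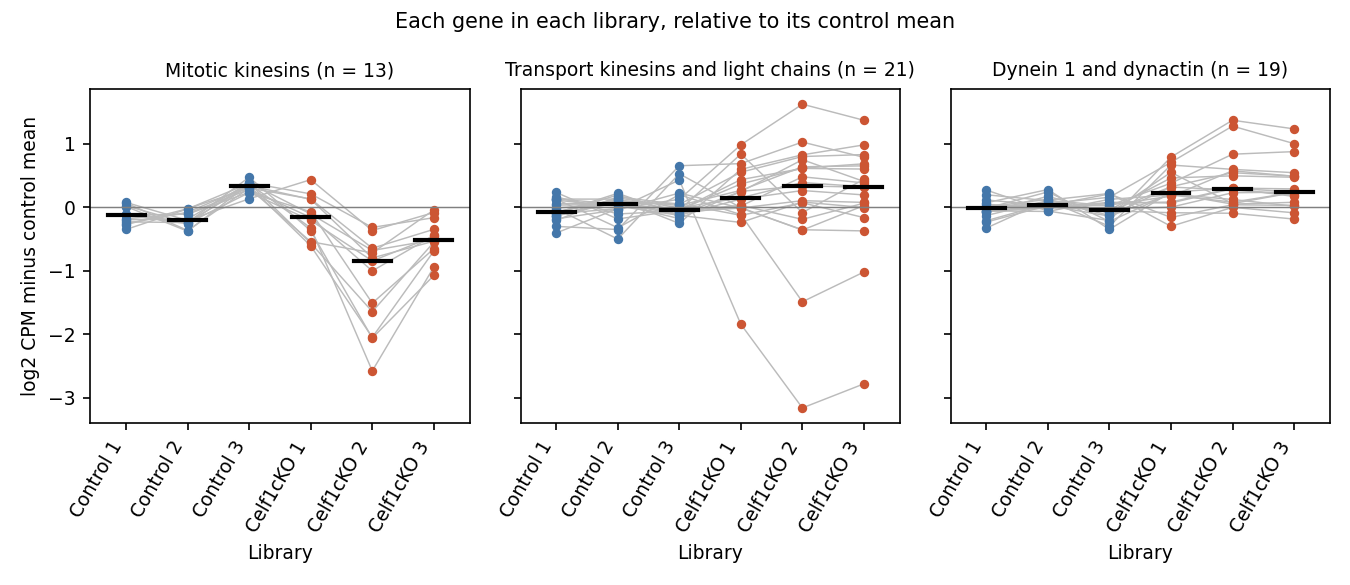
Expression of each motor gene in each library relative to its own Control mean (log2 CPM difference, vertical axis), with thin lines joining the values of a gene and black bars at the median. Mitotic kinesins have a median of -0.85 in Celf1cKO library 2 and -0.16 in library 1, while transport kinesins with light chains and dynein 1 with dynactin have positive medians in all 3 Celf1cKO libraries.

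The promoters of the mitotic kinesins shared a sequence feature that the choice of genes had not used. The cell cycle genes homology region (CHR) is the element through which the MuvB complexes hold G2/M genes silent in resting cells, and it was searched as TTTGAA on both strands, from 250 bases before to 50 bases after each annotated start (RefSeq promoters, GRCm38.p6; 64 of the 89 members matched). It was found for 11 of 12 matched mitotic kinesins and 1 of 11 matched transport kinesins, against 14.3% of 10827 measured genes with a promoter and 20.2% of 27025 genes in all. The CCAAT box was found for 8 of 12 mitotic and 3 of 11 transport kinesins, against 43.0% of measured genes, and no base of the members' windows belonged to a CHR and a CCAAT match together. A match is a description of the letters and not a bound site.

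Stretches from position -100 to 49 around the annotated start, with position 0 the first transcribed base, are shown for 3 mitotic kinesins with both elements and for the elevated transport kinesin Kif3c, which has neither in its window. Capitals mark CHR and CCAAT matches on either strand. The CHR match of Kif11 begins at -19, behind a CCAAT match at -45, and that of Kif23 begins at 2, behind a CCAAT match at -7.
Kif11, chr19:37376282-37376431, plus strand: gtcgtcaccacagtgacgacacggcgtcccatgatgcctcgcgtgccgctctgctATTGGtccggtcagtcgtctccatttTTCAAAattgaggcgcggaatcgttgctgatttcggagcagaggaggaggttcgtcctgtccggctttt
Kif22, chr7:127042371-127042520, minus strand: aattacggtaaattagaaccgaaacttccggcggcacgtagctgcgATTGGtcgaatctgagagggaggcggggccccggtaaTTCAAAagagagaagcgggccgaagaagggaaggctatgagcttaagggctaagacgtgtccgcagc
Kif23, chr9:61946750-61946899, minus strand: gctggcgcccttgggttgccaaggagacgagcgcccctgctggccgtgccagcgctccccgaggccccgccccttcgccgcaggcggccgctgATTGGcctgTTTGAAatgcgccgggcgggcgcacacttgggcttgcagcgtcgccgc
Kif3c, chr12:3365032-3365181, plus strand: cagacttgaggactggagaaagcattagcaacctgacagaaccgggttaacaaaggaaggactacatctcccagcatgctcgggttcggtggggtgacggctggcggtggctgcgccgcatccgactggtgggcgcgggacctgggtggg

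**Figure D4:**
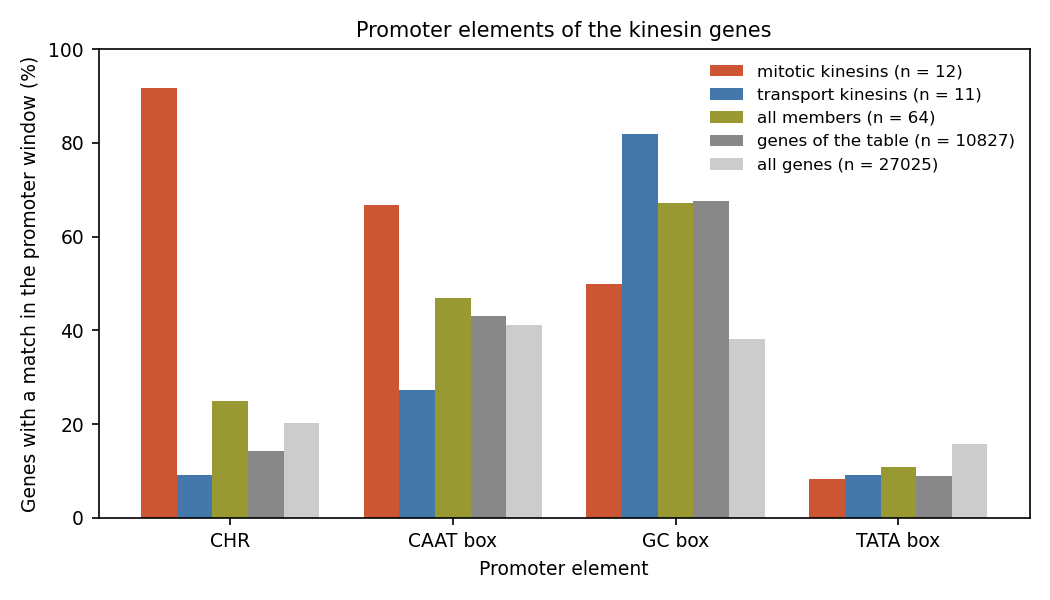
Share of genes (percent, vertical axis) with at least 1 match to each of 4 promoter elements in the window around the start, for mitotic kinesins, transport kinesins, all matched members, all measured genes and all genes of the promoter table. The CHR was found in 91.7% of mitotic kinesins, beside 9.09% of transport kinesins and 14.3% of measured genes, whereas the GC box was found in 50% and 81.8% of them.

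Summed transcripts of the alpha and beta tubulins analysed were higher in every Celf1cKO library, and Tubb2a accounted for 49.2% of that difference. The 11 alpha and beta tubulin genes together gave 1294 ± 32.6 CPM in Control and 1724 ± 63.3 CPM in Celf1cKO (SD, n = 3), a ratio of 1.33, and the groups did not overlap. An exact permutation test (two-sided) gave p = 0.1, the smallest p that 3 against 3 libraries allow. The beta tubulins summed to 1239 ± 42.6 and 1658 ± 46.5 CPM, and the alpha tubulins to 54.5 ± 16.7 and 65.8 ± 21.3 CPM (exact permutation p = 0.5). Both sums were higher in Celf1cKO within each of the 3 replicate numbers, the alpha sum by 10.8, 16.5 and 6.62 CPM (exact paired permutation p = 0.25, the smallest that 3 pairs allow). Tuba1a is not in the alpha sum and Tubb3 is not in the beta sum, so that sums, ratio and shares hold for the 11 genes alone. For this reason, and because close copies share reads, the alpha and beta sums do not give the ratio of the proteins' transcripts.

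Tubb2a stood at 7.46, 7.39 and 7.61 log2 CPM in Control and at 8.37, 8.77 and 8.67 in Celf1cKO. It was elevated 2.17-fold (log2 fold-change 1.12, SE 0.12, limma adjusted p = 0.00888). Its share of the summed CPM of the alpha and beta tubulins analysed went from 13.9% ± 0.76 to 22.6% ± 2.36 (SD, n = 3). Per length it went from 111 ± 8.71 to 243 ± 33.2 CPM per kb, from the third place among the tubulins analysed to the first. The neighbouring Tubb2b on chromosome 13 had 6.24, 6.50 and 6.42 log2 CPM in Control and 6.97, 6.96 and 6.97 in Celf1cKO (0.58, SE 0.09, limma adjusted p = 0.0137), just under the size threshold. The coding sequences of Tubb2a and Tubb2b are 96.5% identical, with an identical run of 551 bases against a read length of 150, so that uniquely mapped reads cannot cover all of either gene and their separate levels are uncertain.

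Tubb5 and Tubb4b, the most abundant of the tubulins analysed in Control at 154 ± 24.6 and 153 ± 15.4 CPM per kb, did not pass (0.22, adjusted p = 0.278 and 0.20, adjusted p = 0.197, by limma). Their shares of the tubulin sum went from 39.6% to 34.4% and from 24.7% to 21.2%. Tubb4a, an isotype best known from brain, was at 5.02, 4.45 and 4.58 log2 CPM in Control and at 4.34, 3.33 and 3.59 in Celf1cKO. It lay lower in every Celf1cKO library and did not pass (-0.93, SE 0.27, limma adjusted p = 0.0679).

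Among the alpha tubulins analysed, Tuba1b had the highest level per length and was alike in both groups, at 5.12, 4.97 and 5.17 against 5.31, 5.06 and 5.14 log2 CPM (0.09, SE 0.11, limma adjusted p = 0.631). Tuba1c split the libraries by replicate number and not by group. It stood at 4.97 and 5.36 log2 CPM in the replicate 2 libraries of Control and Celf1cKO, and between 1.53 and 1.79 in the other 4. Tuba1b and Tuba1c are 98.4% identical in coding sequence, and their separate levels are uncertain for the same reason. Tubg1, the main gamma tubulin, differed by 0.22 (SE 0.09, limma adjusted p = 0.148). With the replicate number as a block, 4 tubulins passed in place of 1: Tubb2a, Tuba4a and Tubg2 were elevated and Tubb4a was reduced. Without Control replicate 2 or Celf1cKO replicate 3 none passed, without Control replicate 3 there were 2 and without Celf1cKO replicate 1 there were 3.

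**Figure D5:**
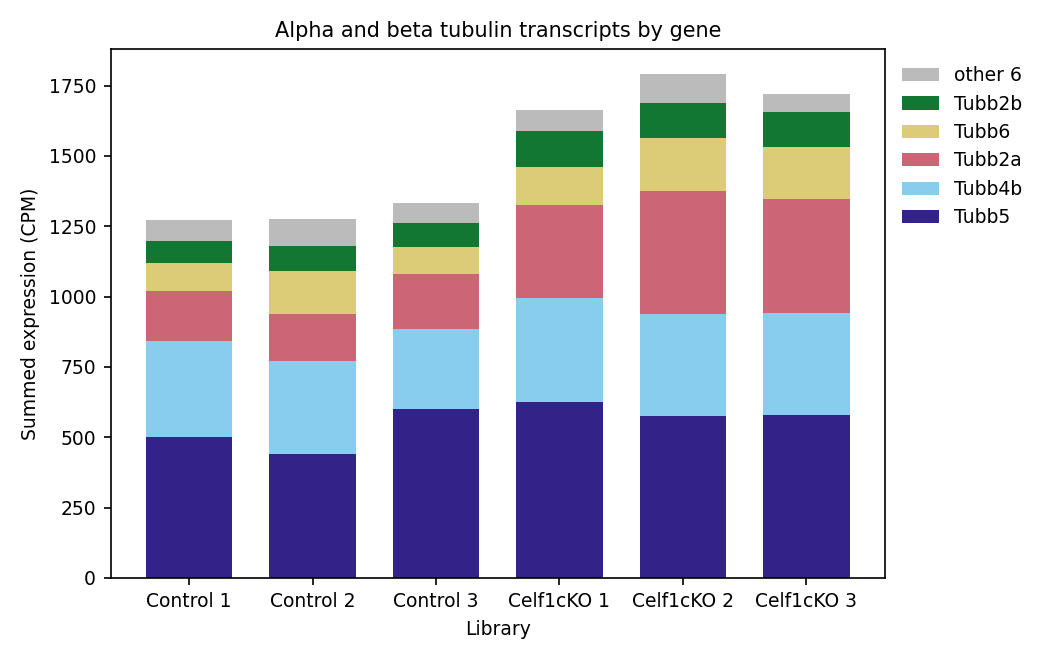
Summed expression (CPM, vertical axis) of the 11 alpha and beta tubulin genes in each library, stacked by gene; the 6 genes of low expression are drawn together. The Control libraries reach 1273 to 1332 CPM and the Celf1cKO libraries 1663 to 1789 CPM, and the Tubb2a section widens most.

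None of the structural microtubule-associated genes and stathmins passed. Of the 6 structural genes 0 passed in limma or voom, with 1 at an unadjusted p under 0.05 (Map2, -0.49, adjusted p = 0.0558) and a median log2 fold-change of 0.01. Map4, the abundant non-neuronal one at 25.0 ± 1.37 CPM per kb in Control, differed by 0.15 (SE 0.10, limma adjusted p = 0.358). Of the 4 stathmins 0 passed in limma or voom, with 2 at an unadjusted p under 0.05. Stmn1, which sequesters tubulin dimers, lay at 5.12, 4.97 and 5.30 log2 CPM in Control and at 5.74, 5.96 and 5.31 in Celf1cKO, where the lowest Celf1cKO library barely cleared the highest Control library (0.54, SE 0.18, limma adjusted p = 0.0882).

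Other microtubule genes outside the rule were read from a companion list, of which 73 of 75 were in the table. Of these 4 were elevated and 1 was reduced, a share of 6.85% beside 7.25% of all genes. Ttll7, which adds glutamate chains to beta tubulin, was elevated most, from 2.38, 2.40 and 3.26 log2 CPM in Control to 4.87, 4.78 and 4.95 in Celf1cKO (2.19, SE 0.24, limma adjusted p = 0.00888). Svbp, the partner of the vasohibins that remove the terminal tyrosine of alpha tubulin, was reduced from 6.40, 6.58 and 6.69 to 5.56, 4.63 and 4.87 (-1.54, SE 0.23, limma adjusted p = 0.0126). The elevated others were Map7d2 (1.17) and Map7d1 (0.72), of the family that recruits Kif5 motors to microtubules, and Mapre2 (0.83), which binds growing plus ends. In each of these 5 genes the groups did not overlap.

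CELF1 binds GU-rich elements in the 3′ end of transcripts, and an element of 11 bases made of repeated TGTT units was looked for in the longest annotated 3′ UTR of each gene (GENCODE M21, GRCm38, transcript strand). It was found in 3 of 87 members (3.45%), beside 4.27% of all 13105 genes with an annotated coding transcript. Among genes called in either direction it was found in 63 of 651 elevated (9.68%) and 11 of 338 reduced (3.25%) genes. The median length searched was 692 bases in the members, 1207 bases in all genes, 1579 bases in elevated genes and 1563 bases in reduced genes. Of the elevated members, Kif5c was the single gene with the element. The 3 genes hold 11 matches in all, many of them overlapping (3 in Kif5c, 3 in Kif1c and 5 in Map4), and the first match of each gene is shown in capitals, because they hold the same repeat in genes that differ in their change: Kif5c was elevated, Kif1c rose by 0.56 (SE 0.10, limma adjusted p = 0.0187), under the size threshold, and Map4 did not pass.
Kif5c, chr2:49772228-49772256, plus strand: attggggttTGTTTGTTTGTttgtttgtt
Kif1c, chr11:70731818-70731846, plus strand: tgctgatgtTGTTTGTTTGTttgtttgtt
Map4, chr9:110003474-110003502, plus strand: gggccaaatTGTTTGTTTGTttgtttgtt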

How the data were processed

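Total RNA of 2 pooled P0 lenses per replicate was sequenced (strand-specific, paired reads of 150 bases). The authors aligned trimmed reads to GRCm38.p6 with STAR (2.7.8a), discarded reads that did not map uniquely, assigned the rest to genes with featureCounts (2.0.0), removed genes of very low expression and normalised the libraries. The deposited value of each library is log2 CPM with a small prior added. The columns with the authors' own group means, fold-changes, F scores, p-values and false discovery rates were not used, nor was the score, while 6 of 6 library columns were. Reads worked back from the deposited values came out whole (tolerance 0.01) for 100% of values, and 3 reads, the smallest level taken as measurable, equal between 0.0609 and 0.0807 CPM. Counting intervals were not computed. Some of the neural retina markers are not reported here.

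Groups follow the labels. Celf1cKO and Control were compared on log2 CPM with limma (3.58.1, R 4.3.3, variance trend, no block), with Benjamini-Hochberg adjustment over 13931 genes. The thresholds were those of the study (adjusted p under 0.05, log2 fold-change beyond 0.58, mean above 1 log2 CPM, passed by 10529 genes). The procedure was tested on simulated counts. Levels per kb divide CPM by the union of exons in GENCODE M21, which held 13928 of the gene identifiers. Same-numbered libraries deviated together (correlations 0.33, 0.42 and 0.33 over 10529 genes), and the other combinations gave -0.35 to 0.02. The numbers may therefore pair the samples. Deviations within a group sum to 0, so that these correlations depend on each other and cannot settle it. The pairing comes from the numbers in the labels and this check, and the study describes none.

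Genes named were Celf1, every called member, the member with the highest Control level per kb in each role, and called genes of the companion lists. Of the uncalled members with a mean above 1 log2 CPM, the 5 with the largest fold-change were also named. Other members are named beside a relative or where a count turns on them, chosen after their values were seen. So were Top2a, Cryaa, Mip, Bfsp1, Elavl4, Foxe3 and Cryab. The members, roles and lists were chosen with earlier results of these data known. Tried instead were a block for the replicate number, limma without the variance trend, log2(CPM + 1), a filter on the mean, limma voom on the recovered reads, total-read scaling, median centring, and each library left out in turn, and, chosen after seeing the data, a paired permutation test of the tubulin and mitotic kinesin sums. Matches and figures were made with Python 3.11.15, Biopython 1.88 and matplotlib 3.10.9.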

Additional observations from a re-analysis of the deposited data

How the results depend on the processing

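Depth limits the members of low expression, such as Tuba8 with 5 to 20 reads in a library. Leaving out each library in turn gave between 1 and 1878 called genes over the table, between 0 and 20 members, 0 to 3 mitotic kinesins, 0 to 8 transport motors, 0 to 3 dynein 1 and dynactin genes and 0 to 3 tubulins; the lowest counts came without Control replicate 2 or Celf1cKO replicate 3 and the highest without Celf1cKO replicate 1. Celf1 kept its direction (-1.99 to -1.36) and passed in 1 of these 6 comparisons. Fewer libraries remain in each, and the cause beyond that was not tested. Without the variance trend, 412 genes, 4 members (Dynll2, Kif3c, Kifc3, Tubb2a), 2 transport motors and 1 dynein gene passed, and Celf1 (-1.60) did not. Scaling by total reads called 1846 genes (1650 higher, 196 lower, against 654 and 356), 24 members, 9 transport motors, 7 dynein 1 and dynactin genes and 5 tubulins; the shift of 0.23 in the median of all genes goes with it. The tubulin count was 3 with the filter on the mean and 2 with voom. With the replicate block, which pairs the libraries, 1255 genes, 12 members and 4 tubulins were called, and the counts of mitotic kinesins, transport motors and dynein genes did not change. For the 24 members named by the rule above, 270 values kept their direction and side of the threshold, 9 gained and 30 lost the call, and 3 turned sign. Dync2h1, which ran from -0.0622 to 0.155 over the leave-one-out comparisons, turned without Control replicate 1 and without Celf1cKO replicate 2. Kif2a turned with total-read scaling (0.0671). Members outside these 24 turned sign too, among them Dynll1 (-0.148 to 0.073 over the leave-one-out comparisons), Klc4 (-0.122 to 0.056) and Tuba1c (-1.03 to 1.31).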

Other observations

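The split of Tuba1c by replicate number was uncommon. Of 10529 genes with a mean above 1 log2 CPM, 1 stood more than 2 log2 units higher in both replicate 2 libraries than in all other libraries, and that gene was Tuba1c. In the same libraries 15 genes stood more than 2 log2 units lower, among them Col2a1, Optc, Lhx2, Zic1, Zic2 and Zic4, of which Optc is known from the ciliary body. In the replicate 1 libraries 2 genes stood higher and 0 lower by this measure, and in the replicate 3 libraries 0 did either way. The measure was chosen after the values of Tuba1c were seen.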
